A study of Mus musculus with 7 samples.

Results

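The mouse T cell receptor alpha/delta locus was described from RNA-sequencing of splenic Tregs of young and aged mice. Its members were the genes that the series table types as T cell receptor genes (TR_) and whose symbols start with Tra or Trd. There were 161 members among the 25469 genes of the series table. They comprised 93 Trav and 59 Traj segments, Trac, Trdc, 4 Trdv, 2 Trdj and 1 Trdd segment. By type, 87 were V genes, 53 J genes, 10 V pseudogenes, 8 J pseudogenes, 2 constant genes and 1 D gene. The count tables list a further 39 genes of the locus, which had no count in any library.

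The libraries were made from CD4+CD25+ splenocytes of wild-type mice, isolated with magnetic beads. The animals were male C57BL/6 mice. The aged group held 3 libraries from mice labelled 18-month old, and the young group held 4 libraries from mice labelled 8-week old. The labels call the libraries biological replicates and name no treatment. CD4+CD25+ cells are here called Tregs, as in the paper, although recently activated T cells also carry CD25. Foxp3, the lineage factor of Tregs, was measured in every library at 412 to 646 counts per 1000000 gene counts (CPM). Markers of other cells were present too: the summed level of 6 B cell genes was 758 to 1457 CPM in aged and 1251 to 1887 CPM in young libraries. Of 6 erythroid genes, the sum was 13183 to 138553 CPM in aged and 12945 to 109635 CPM in young libraries. For 5 myeloid genes the sum was 799.7 to 3535 CPM in aged and 472 to 966 CPM in young libraries, which overlapped, and it was highest in aged replicate 1. Of these, edgeR called S100a8 (log2 fold change 2.25, adjusted p = 0.0468) and S100a9 (2.43, adjusted p = 0.0278) higher and Csf1r (-1.12, adjusted p = 0.00310) lower in aged Tregs. Without aged replicate 1, S100a8 (1.29) and S100a9 (1.58) were not called, and the call was kept in 2, 4 and 7 of the 7 fits that leave out 1 library. The cell mixture was not separated further, and in such bulk samples fewer cells of a type and less RNA per cell cannot be told apart.

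Each developing T cell joins 1 V segment to 1 J segment to encode the variable part of its alpha chain, and the joined exon is spliced to the constant gene Trac. The delta chain of gamma-delta T cells is encoded by Trdv, Trdd, Trdj and Trdc segments that lie inside the alpha locus, so that joining a Trav to a Traj segment deletes them from that chromosome. An alpha-beta T cell can go on joining farther V and J segments until it is selected, and Tregs carry alpha-beta receptors of many different V and J segments. On GRCm38 (GENCODE M21) the members span chr14:52427928-54224206, with the Trav segments at chr14:52427928-53977678, the Traj segments at chr14:54155005-54218842 and Trac, the last gene, at chr14:54220521-54224206. All members lie on the plus strand except Trdv5.

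Gene counts were 10734234 to 11244060 in aged and 12039894 to 13649310 in young libraries. A count of 3, taken as the low limit, was worth 0.267 to 0.279 CPM in aged and 0.220 to 0.249 CPM in young libraries. Of the 161 members, 94 had a count in all 7 libraries and 29 had at most 3 counts in total. The members together took 581 to 723 CPM in aged and 530 to 730 CPM in young libraries. Reads on no gene were 9.82% to 14.2% of the reads in aged and 8.27% to 10.9% in young libraries. Mitochondrial genes took 5.08% to 10.7% of gene counts in aged and 2.63% to 3.23% in young libraries, with no overlap.

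Trac, which encodes the constant part of every alpha chain, held most of the counts of the locus. Its level was 547, 469 and 541 CPM in aged replicates 1 to 3 and 393, 545, 418 and 458 CPM in young replicates 1 to 4. The groups overlapped, since young replicate 2 stood among the aged libraries. The log2 fold change of aged over young Tregs was 0.27 ± 0.12 (SE; edgeR quasi-likelihood test, adjusted p = 0.168). The Trav segments together had 128, 83.9 and 89.8 CPM in aged and 103, 156, 113 and 108 CPM in young libraries, which also overlapped. The Traj segments together had 42.4, 19.6 and 25.9 CPM in aged and 22.9, 16.6, 18.9 and 14.9 CPM in young libraries. Aged replicate 1, which also had the highest myeloid sum, held the highest J level, and aged replicate 2 lay below young replicate 1. The difference of means was 10.9 CPM, and 4.38 CPM without aged replicate 1. The part of myeloid cells in these levels was not tested. Under union counting, a J count comes from a read that touches the J segment and no other gene, because a read over both a V or the constant gene and a J segment counts for several genes and for none of them.

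The classes were also set in proportion to each other. For every 1000 Trac counts there were 234, 179 and 166 Trav counts in aged and 263, 286, 271 and 235 in young libraries. All aged values were lower, but aged replicate 1 (234) nearly met young replicate 4 (235). For every 1000 Trav counts there were 331, 233 and 288 Traj counts in aged and 223, 107, 167 and 138 in young libraries. All aged values were higher, by a difference of means of 125.6, and leaving out any 1 library left the difference at 102 to 151. Traj counts per 1000 Trac counts overlapped, at 77.5, 41.7 and 47.9 in aged and 58.4, 30.5, 45.3 and 32.6 in young libraries. These ratios are sums over the members and were given no test.

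The J to V ratio moved with the share of reads on no gene. Within the aged group the share of such reads was 14.2% in replicate 1, 11.6% in replicate 3 and 9.82% in replicate 2, which is the order of the ratio. Within the young group it was 10.9% in replicate 1, 9.61% in replicate 3, 8.76% in replicate 4 and 8.27% in replicate 2, again the order of the ratio. Across both groups a single pair of neighbours, aged replicate 2 and young replicate 1, stood in another order. Aged replicate 2 had fewer reads on no gene than young replicate 1 and a slightly higher ratio. The part of such reads in the difference between the ages was not tested.

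**Figure D1:**
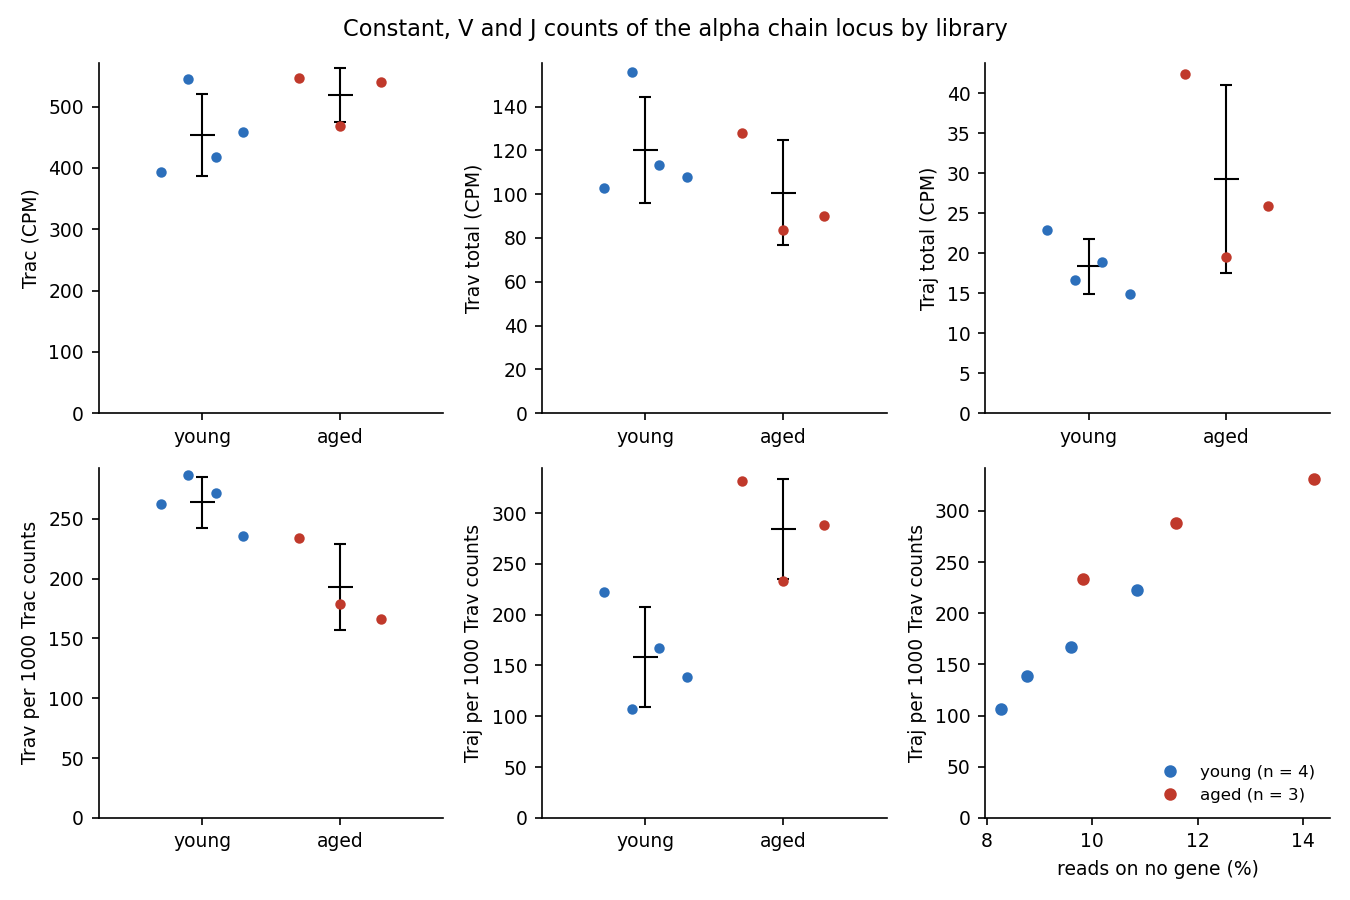
The first panels plot, for each library, the CPM of Trac, of all Trav and of all Traj segments, then Trav counts per 1000 Trac counts and Traj counts per 1000 Trav counts; points are libraries, the long tick is the mean and the bar the SD (young n = 4, aged n = 3). The last panel sets Traj per 1000 Trav counts against the percent of reads on no gene: the 3 aged libraries sit at 233 to 331 and the 4 young libraries at 107 to 223, and both groups climb with the reads on no gene.

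Of the 161 members, 58 passed the filter on low counts and were tested by expression: 47 Trav, 9 Traj, Trac and Trdc. A single member, Traj1, was called (adjusted p-value under 0.05, edgeR), against 16.7% of all 13904 genes tested. It was called higher in aged Tregs, against 9.8% of all genes, and 0 members were called lower, against 6.94% of all genes. An unadjusted p under 0.05 was found for 7 members, against 32.7% of all genes tested. The log2 fold changes lay on both sides of 0, with 29 above and 29 below, and the median over the members was 0.01 beside 0.02 over all genes. DESeq2 called 4 members, which were Traj1, Traj3, Trav14-1 and Trdc, against 27.4% of all genes. Over all 161 members, levels of aged and young libraries did not overlap for 13 (8.07%), against 18.9% of all genes with a count. Aged libraries were above young ones for 6 members, against 9.62% of all genes, and below them for 7, against 9.25%.

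Traj1 is a J pseudogene of 29 bases at chr14:54218814-54218842, the member nearest to Trac. It had 40, 19 and 21 counts in aged and 13, 11, 7 and 15 counts in young libraries. All aged libraries were higher, with 2.43 ± 1.05 CPM in aged (SD, n = 3) and 0.895 ± 0.250 CPM in young Tregs (SD, n = 4). The log2 fold change was 1.47 ± 0.36 (SE; edgeR, adjusted p = 0.0267). It was past the threshold in 2 of the 7 fits that leave out 1 library (log2 fold change 1.13 to 1.62), and lost it without aged replicate 1 (adjusted p = 0.0667), aged replicate 3 (0.0519), young replicate 2 (0.0550), young replicate 3 (0.0662) or young replicate 4 (0.0543), edgeR in each. Traj1 as a share of all Traj counts was 8.57%, 8.64% and 7.55% in aged and 4.68%, 4.85%, 3.07% and 7.50% in young libraries. These groups did not overlap, but young replicate 4 lay close to aged replicate 3, and the share was not called (log2 fold change 0.72 ± 0.32, SE; edgeR, adjusted p = 0.155).

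Traj3, which lies upstream of Traj2 and Traj1, had 43, 15 and 32 counts in aged and 13, 7, 18 and 16 counts in young libraries. Aged replicate 2 (1.33 CPM) lay below young replicate 3 (1.495 CPM), so that the levels overlapped. Its log2 fold change was 1.40 ± 0.42 (SE; edgeR, adjusted p = 0.0534), and it was called without aged replicate 2 (1.69, adjusted p = 0.0350, edgeR) and with immunoglobulin, haemoglobin and mitochondrial genes left out (1.41, adjusted p = 0.0485, edgeR). Over the settings run its adjusted p ranged from 0.00938 to 0.144, and that of Traj1 from 0.00335 to 0.0823. Traj2, which lies between Traj3 and Traj1, had 31, 16 and 14 counts in aged and 15, 20, 12 and 19 in young libraries, and was not called (0.58, adjusted p = 0.258, edgeR). Its log2 fold change ranged from 0.21 to 0.78 with 1 library left out.

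The J segments that the results turn on are printed 5′ to 3′ from the GENCODE M21 transcripts (GRCm38, plus strand), to show how short the counted features are and which carry the J motif. Capitals mark the J motif, a codon that starts with TT (phenylalanine or leucine), a codon that starts with GG (glycine), any codon and again a codon that starts with GG, which closes the hypervariable loop that the joint encodes. The motif was searched on the coding strand alone, without regard to frame, and found in 45 of the 59 Traj members (76.3%), in 44 of 51 J genes and 1 of 8 J pseudogenes.
Traj18: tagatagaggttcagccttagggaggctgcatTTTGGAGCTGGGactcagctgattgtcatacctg
Traj13: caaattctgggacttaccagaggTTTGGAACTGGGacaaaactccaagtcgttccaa
Traj3: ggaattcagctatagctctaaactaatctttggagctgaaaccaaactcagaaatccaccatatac
Traj2: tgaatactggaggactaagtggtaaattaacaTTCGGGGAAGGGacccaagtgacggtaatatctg
Traj1: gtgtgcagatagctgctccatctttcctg
This motif is in Traj18, Traj13 and Traj2, and its letters are not in Traj1 or Traj3.

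Counts climbed along the J cluster towards Trac. Over all 7 libraries the median count per kilobase was 62.6 in the 20 upstream J segments (Traj61 to Traj41), 331 in the 20 middle segments (Traj40 to Traj21) and 1123 in the 19 downstream segments (Traj20 to Traj1). Traj1 had the highest count per kilobase of the class, 4345. It is also the shortest Traj member, with 29 bases against a median of 61. A read that touches a segment counts in full, which raises counts per kilobase in short ones. By mean count over the 7 libraries Traj1 (18) lay below Traj3 (20.6) and Traj2 (18.1). Spearman's rho between a segment's place and its counts per kilobase over the 59 segments was 0.716 to 0.909 in aged and 0.780 to 0.855 in young libraries. This is a description over segments of the same libraries, which share their depth. The V cluster showed a flatter slope, with rho of 0.253 to 0.325 over 93 segments in the 7 libraries.

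The 19 downstream segments took 75.2%, 74.9%, 75.4% and 75.5% of Traj counts in young libraries. In aged libraries they took 68.1%, 57.3% and 77.0%. The young values had an SD of 0.278 percentage points (n = 4). Counting error of a share that rests on 200 to 278 Traj counts exceeds this SD. The closeness of the young values is therefore no measure of the spread between mice. The aged values spread on both sides of the young ones, and aged replicate 2 was the lowest. The difference of means was -7.80 percentage points, and -2.72 without aged replicate 2. Traj counts in total were 467, 220 and 278 in aged and 278, 227, 228 and 200 in young libraries. In the V cluster, the 31 downstream segments (Trav13-1 to Trav23) took 46.6%, 47.5% and 47.3% of Trav counts in aged and 49.9%, 49.5%, 45.1% and 51.0% in young libraries, which overlapped.

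**Figure D2:**
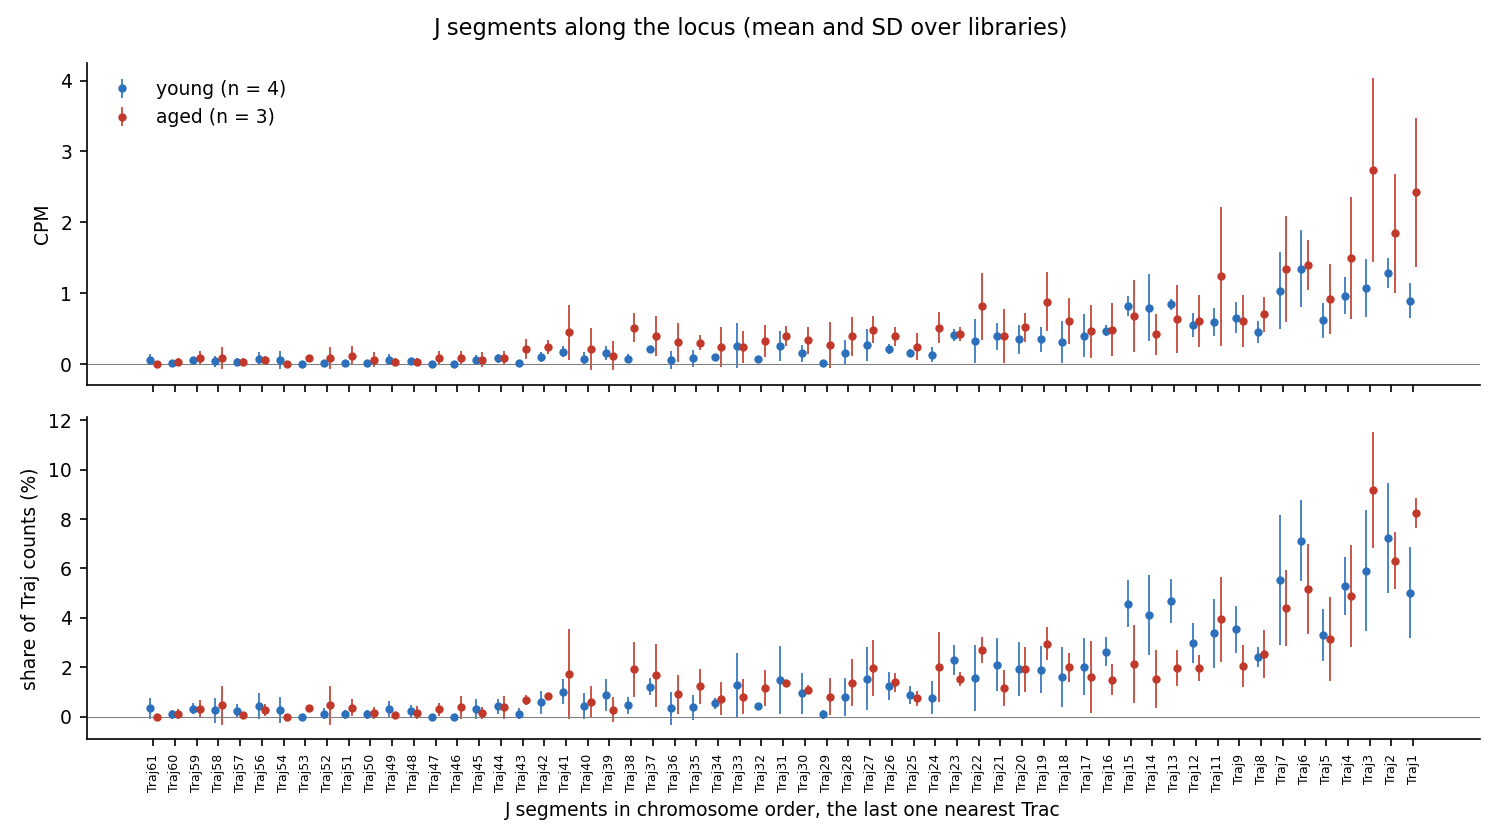
The 59 J segments stand in chromosome order with the last one nearest Trac; the upper panel gives the CPM and the lower panel the share of Traj counts in percent, as mean and SD over the 4 young (blue) and 3 aged (red) libraries. Levels climb to the right in both ages, and Traj1 and Traj3 reach the highest aged shares.

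By share of Traj counts, 9 J segments passed the filter and held 47.1% of the class. None was called by edgeR, against 16.7% of all genes in the same fit. An unadjusted p under 0.05 was found for 1 segment, against 32.7% of all genes in that fit. That segment was Traj13, which was noticed after its values were seen. It took 2.78%, 1.36% and 1.80% of Traj counts in aged and 3.96%, 4.41%, 4.39% and 6% in young libraries, without overlap. In counts these were 13, 3 and 5 in aged and 11, 10, 10 and 12 in young libraries, which overlapped, since the Traj total of aged replicate 1 was the highest. The log2 fold change of the share was -1.13 ± 0.37 (SE; edgeR, adjusted p = 0.0694). Among the more abundant J segments, Traj6 took 6.29%, Traj4 5.13% and Traj7 5.05% of Traj counts as a mean over the 7 libraries, and all 3 overlapped between the ages. The 6 J segments whose CPM was higher in every aged library than in any young one (10.2% of 59, against 9.62% of all genes with a count) were Traj1, Traj53, Traj43, Traj42, Traj38 and Traj32, and apart from Traj1 none had over 7 counts in a library.

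Assigned V counts were spread over many segments in both ages. The effective number of Trav segments, the exponential of the Shannon entropy, was 53.5, 50.7 and 52.8 in aged and 53.1, 53.5, 50.8 and 52.9 in young libraries. Aged and young means were 52.3 ± 1.47 and 52.6 ± 1.21 (SD, n = 3 and 4). Segments detected numbered 70 to 72 in aged and 76 to 78 in young libraries, without overlap, while Trav counts were 1410, 943 and 964 in aged and 1249, 2128, 1365 and 1446 in young libraries. After thinning every library to the smallest Trav total, the effective number was 50.7 to 52.8 in aged and 50.2 to 52.5 in young libraries. The effective number of Traj segments was 34.7, 35.7 and 27.3 in aged and 31.9, 30.3, 28.8 and 29.0 in young libraries, with an SD of 4.57 in aged and 1.42 in young Tregs.

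Libraries were also compared pair by pair in V use. The distance between a pair of libraries, the summed absolute difference in V share divided by 2, was 13.0 to 15.4 percentage points between young libraries, 17.8 to 18.8 between aged libraries and 14.5 to 18.4 between the ages. With every library thinned to the smallest Trav total, which was tried once the values were known, the distances were 15.5 to 17.4, 18.5 to 19.6 and 16.4 to 19.9. Chi-square per degree of freedom of Trav counts, near 1 under counting alone, was 1.14 to 1.78 between young, 1.71 to 1.90 between aged and 1.36 to 2.29 across the ages. The pairs of young replicate 1 with the other young libraries were the lowest, at 1.14 to 1.21. For Traj it was 0.952 to 2.19, 0.914 to 1.69 and 0.303 to 3.69. Only segments with 20 or more counts over the pair entered, which left 39 to 55 Trav but 4 to 14 Traj segments. The Traj values therefore rest on few segments, the 0.303 on 4. The reads carry no molecular identifiers, so that PCR copies add to these values.

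The V segments with the largest mean shares of the assigned V counts were Trav7-4, Trav14n-3, Trav4-4-dv10, Trav14-1 and Trav14-2, with mean shares over the 7 libraries of 4.74%, 3.96%, 3.41%, 3.40% and 3.19%. Of their 50-base windows 24.9% (Trav7-4) to 95.1% (Trav14-1) are found in no other V segment, so that counts of segments with copies leave out reads that fit several. Trav7-4 took 4.47%, 5.94% and 5.39% of Trav counts in aged and 3.92%, 4.84%, 5.35% and 3.25% in young libraries, which overlapped (log2 fold change of the share 0.27, adjusted p = 0.449, edgeR). Leaving out 1 library moved this log2 fold change to between 0.16 and 0.38. By share, 47 Trav segments passed the filter and held 90.2% of Trav counts. None was called by edgeR, against 16.8% of all genes in that fit. An unadjusted p under 0.05 was found for 3 of them, against 32.7% of all genes in that fit. The shares of aged and young libraries did not overlap for 6 of the 93 Trav segments, against 18.9% of all genes with a count by their levels. No V or J segment was called by share under any of the settings run, limma-voom included.

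Trav14-1 (chr14:53554022-53554558) had the lowest p-value among the V segments tested, by level and by share. It had 31, 29 and 23 counts in aged and 48, 98, 56 and 52 counts in young libraries. Its share was 2.20%, 3.08% and 2.39% in aged and 3.84%, 4.61%, 4.10% and 3.596% in young libraries, so that every aged library was lower. The share differed by a log2 fold change of -0.67 ± 0.21 (SE; edgeR, adjusted p = 0.0647) and the level by -0.89 ± 0.28 (edgeR, adjusted p = 0.0590). DESeq2 called the level (adjusted p = 0.0159), and edgeR called neither in any fit that left out 1 library; the adjusted p of the level ranged from 0.0159 to 0.171 over the settings run. Of its 50-base windows 95.1% are found in no other V segment.

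Trav7-1 took 0.567%, 0.742% and 1.04% of Trav counts in aged and 1.12%, 1.17%, 1.68% and 1.18% in young libraries, lower in every aged library, and was not called (-0.74 ± 0.33, SE; edgeR, adjusted p = 0.166). Trav15-1-dv6-1, one of the 9 members that can serve both alpha and delta chains by their names, took 0.993%, 0.848% and 0.726% in aged and 1.36%, 1.27%, 1.47% and 1.45% in young libraries. It was lower in every aged library and not called (-0.67 ± 0.27, SE; edgeR, adjusted p = 0.123). Trav6-3 took 1.35%, 2.23% and 1.45% in aged and 0.801%, 0.752%, 0.952% and 1.24% in young libraries. It was higher in every aged library and not called (0.83 ± 0.32, SE; edgeR, adjusted p = 0.112). Trav6-3 differs from Trav6d-3 by 1 base, so its counts are uncertain. The other named segments overlapped in share: Trav3-3, Trav10n, Trav7d-3, Trav17, Trav13-4-dv7 and Trav6-1 had log2 fold changes of -0.41, -0.45, 0.60, 0.49, 0.48 and 0.47. None was called, and leaving out 1 library moved most of these values, that of Trav17 from 0.02 to 0.82, of Trav10n from -0.89 to -0.23, of Trav3-3 from -0.59 to -0.21, of Trav6-1 from 0.26 to 0.67 and of Trav7d-3 from 0.36 to 0.77.

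**Figure D3:**
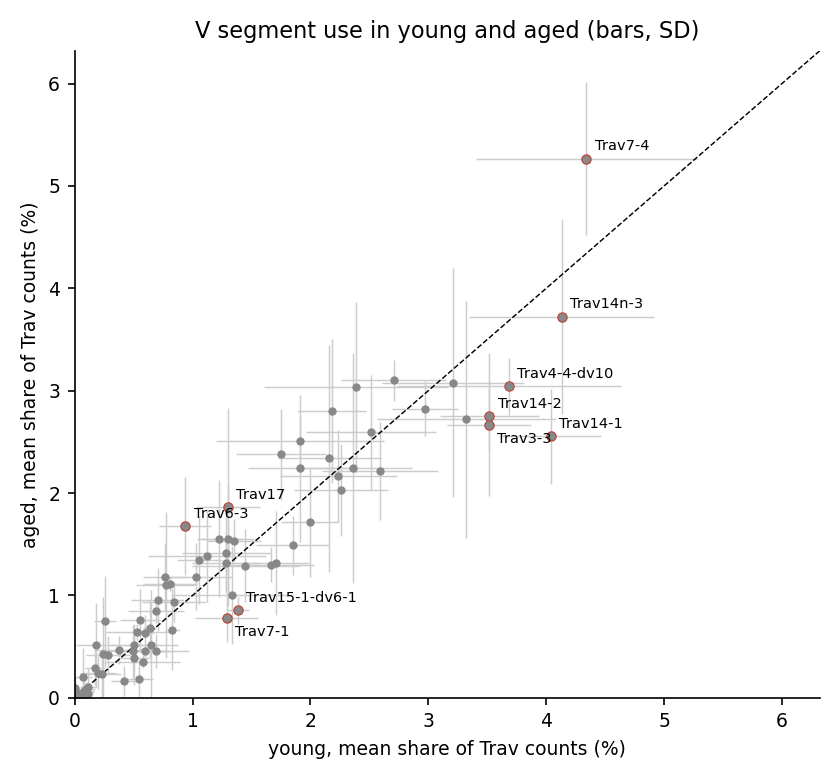
Each point is a Trav segment, with its mean share of Trav counts in percent in the 4 young libraries on the x axis and in the 3 aged libraries on the y axis, bars giving the SD and the dashed line equal shares. Most segments lie along the line; Trav14-1, Trav15-1-dv6-1 and Trav7-1 lie below it and Trav6-3 above it.

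Grouped by family, 3 of the 23 Trav families did not overlap in share, against 18.9% of all genes with a count by their levels, so that this is no result about the families, whose values are a description. The Trav15 family took 1.35%, 0.848% and 0.934% in aged and 2.00%, 1.79%, 2.27% and 1.94% in young libraries. The Trav13 family took 7.45%, 7.10% and 8.30% in aged and 6.89%, 6.58%, 6.30% and 5.88% in young libraries. The Trav16 family took 6.03%, 7.32% and 5.71% in aged and 4.96%, 4.14%, 5.42% and 5.39% in young libraries. The family of largest mean share, Trav14, took 14.6% ± 0.137 in aged (SD, n = 3) and 16.8% ± 1.89 in young Tregs (SD, n = 4), with overlap because young replicate 4 had 14.5%. In aged replicates 1 and 2 the Trav7 family took more, 14.9% and 15.4% against 14.5% and 14.7%. The aged SD of Trav14, on 943 to 1410 Trav counts in a library, is smaller than counting error.

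The V cluster of this strain holds copied blocks, whose segments carry D or N in their names. Single or original segments took 73.8% ± 1.39 of Trav counts in aged and 74.4% ± 1.48 in young Tregs, D copies 12.7% ± 1.87 and 11.4% ± 0.891, and N copies 13.5% ± 1.13 and 14.1% ± 1.61 (SD, n = 3 and 4), all with overlap. Copied sequence went with missing counts. Of 134 V segments in the annotation, 39 have no 50-base window that other V segments lack, and 27 of these had no count in any library. Of the 14 whose windows are all their own, 1 had no count. Of the 37 V segments without a count, 32 held under 50% windows of their own.

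Trav7-4 and Trav7d-4 illustrate this. They differ by 2 bases over their transcripts, and bases 1 to 300 of the coding parts are printed 5′ to 3′ with the differing bases in capitals (GENCODE M21, GRCm38, plus strand; Trav7-4 at chr14:53461099-53461738 and Trav7d-4 at chr14:52769753-52770392).
Trav7-4: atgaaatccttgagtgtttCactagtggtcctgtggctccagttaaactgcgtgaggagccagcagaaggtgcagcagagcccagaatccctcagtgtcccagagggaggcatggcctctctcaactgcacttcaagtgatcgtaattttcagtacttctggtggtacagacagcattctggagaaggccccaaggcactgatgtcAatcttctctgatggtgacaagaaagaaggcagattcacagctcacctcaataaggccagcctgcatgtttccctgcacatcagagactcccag
Trav7d-4: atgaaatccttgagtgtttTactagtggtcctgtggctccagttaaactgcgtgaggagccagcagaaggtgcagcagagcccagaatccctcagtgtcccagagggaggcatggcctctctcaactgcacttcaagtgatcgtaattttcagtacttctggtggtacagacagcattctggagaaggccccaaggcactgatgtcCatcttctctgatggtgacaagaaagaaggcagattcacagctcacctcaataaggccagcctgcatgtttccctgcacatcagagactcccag
Over the 7 libraries Trav7-4 had 443 and Trav7d-4 had 134 counts. Windows of their own made up 24.9% and 21.9%, so that a 50-base read elsewhere in these segments cannot be assigned to 1 of them. The window length was set here, and longer or paired reads reach the differing bases from farther away.

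**Figure D4:**
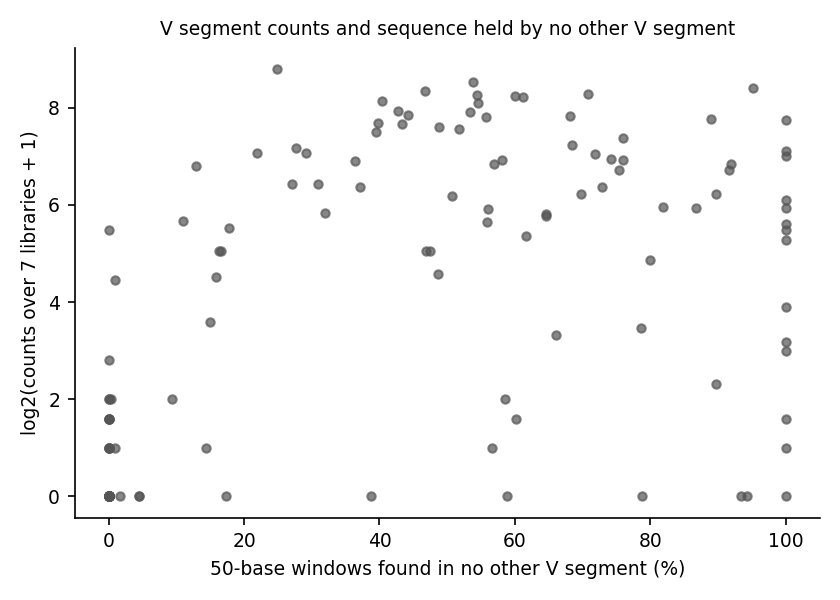
Each point is 1 of the 134 V segments, with the percent of its 50-base windows found in no other V segment on the x axis and log2 of its counts over the 7 libraries plus 1 on the y axis. The segments at 0% gather at or near 0 counts, the highest of them at 44 counts.

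The segments of 2 invariant receptors are among the members. Invariant NKT cells join Trav11 (or its copy Trav11d) to Traj18, and mucosal-associated invariant T cells join Trav1 to Traj33. Trav11 had 1, 0 and 0 counts in aged and 0, 1, 0 and 0 in young libraries, and Trav11d had 1 count in all. Trav11 has 343 and Trav11d 342 coding bases with 0 differences over the shorter length, so that reads of the shared bases cannot be told apart, and Trav11n, which differs by 8 bases, had 10 counts in all. Traj18 had 10, 3 and 7 counts in aged and 9, 4, 1 and 2 in young libraries. Trav1 had 17, 3 and 7 counts in aged and 3, 8, 2 and 4 in young libraries. Traj33 had 5, 3 and 0 counts in aged and 9, 2, 1 and 1 in young libraries. All 3 overlapped, and none passed the filter on low counts. Of 6 genes listed for such cells, edgeR called Il18r1 (log2 fold change 0.66) and Tbx21 (1.04) higher and Klrb1c (-0.73) lower in aged Tregs. Among all genes tested 9.8% were called higher and 6.94% lower. Leaving out 1 library at a time kept the call of Il18r1 in 6, of Tbx21 in 7 and of Klrb1c in 4 of 7 fits. Zbtb16, the lineage factor of such cells, was at 0.711 to 1.82 CPM in aged and 2.09 to 3.37 CPM in young libraries (adjusted p = 0.0990, edgeR). Il18r1 stood well above it, at 105 to 108 CPM in aged and 57.6 to 77.5 CPM in young libraries. Which cells carried Il18r1 was not tested. The last 150 coding bases of Trav11 (chr14:53519303-53519859), of the V segment with the lowest p-value and of the delta segment described next are shown 5′ to 3′ from the same annotation, with the codons of the last tyrosine, any residue, cysteine, which close the V segment, in capitals.
Trav11: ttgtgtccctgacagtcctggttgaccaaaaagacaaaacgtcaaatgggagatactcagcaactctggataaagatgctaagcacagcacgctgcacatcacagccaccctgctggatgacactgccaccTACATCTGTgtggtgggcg
Trav14-1: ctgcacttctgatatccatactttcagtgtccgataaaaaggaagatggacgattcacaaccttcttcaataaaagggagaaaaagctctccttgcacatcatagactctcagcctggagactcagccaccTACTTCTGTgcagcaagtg
Trdv2-2: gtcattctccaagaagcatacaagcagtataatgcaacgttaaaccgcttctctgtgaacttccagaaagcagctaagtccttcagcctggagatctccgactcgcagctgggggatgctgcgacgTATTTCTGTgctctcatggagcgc
In a joined gene the J sequence follows the last bases of an alpha V segment, and a D segment comes between in the delta chain.

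Among the delta members Trdc alone passed the filter, and edgeR did not call it. Trdc, the constant gene of the delta chain, had 48, 82 and 54 counts in aged and 111, 138, 91 and 152 counts in young libraries. Its level was 4.36, 7.29 and 5.03 CPM in aged and 9.16, 10.1, 7.56 and 11.3 CPM in young libraries, lower in every aged library. The log2 fold change was -0.69 ± 0.26 (SE; edgeR, adjusted p = 0.108), so that it was not called. It was called without aged replicate 2 (-1.02, adjusted p = 0.0325, edgeR) and by DESeq2 (adjusted p = 0.0286), and its adjusted p ranged from 0.0286 to 0.277 over the settings run.

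Trdv2-2 (chr14:53960944-53961602) had 0, 0 and 1 counts in aged and 7, 14, 6 and 4 counts in young libraries, lower in every aged library. Over the libraries of an age these were 1 and 31 counts, a ratio of 0.0501 with an exact 95% counting interval of 0.00123 to 0.300, which covers counting error only. It did not pass the filter. Without the filter edgeR called it (adjusted p = 0.0288), against 3.57% of all genes called lower in that fit. The exact permutation test of its CPM gave the smallest two-sided p that 3 against 4 libraries allow (0.0571). Any member whose levels do not overlap gets this p, Trdc and Traj1 included. It therefore only restates the lack of overlap and cannot pass the threshold of 0.05. Trdv2-2 overlaps an exon of Gm43647, so that reads there were counted for neither. Of its 50-base windows 47.4% are found in no other V segment. The nearest V segment, Trdv2-1, had no count, so the counts of Trdv2-2 leave out reads that fit both.

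Trdv1 had 9, 4 and 8 counts in aged and 6, 9, 18 and 14 in young libraries, and Trdv4 had 10, 4 and 2 in aged and 8, 5, 15 and 4 in young libraries. Both overlapped. Trdv5, on the minus strand and overlapping Trdc, had 1, 1 and 0 counts in aged and 3, 4, 0 and 5 in young libraries. Trdj2 had 0 counts in every aged library and 2, 3, 1 and 2 in young libraries. Trdj1 had 1 aged and 5 young counts, and Trdd2 had 1 and 2. The Trdv, Trdd and Trdj counts together were 20, 10 and 12 in aged and 26, 35, 44 and 32 in young libraries. In CPM they were 1.82, 0.889 and 1.12 in aged and 2.14, 2.56, 3.65 and 2.39 in young libraries, without overlap. Without Trdv2-2 they were 1.82, 0.889 and 1.02 CPM in aged and 1.57, 1.54, 3.16 and 2.09 CPM in young libraries, which overlapped, since aged replicate 1 lay above young replicates 1 and 2.

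The 3 gamma constant genes measured belong to the chain that pairs with delta. The constant gene Tcrg-C1 had 8.26, 5.43 and 4.84 CPM in aged and 12.04, 16.6, 13.0 and 10.3 CPM in young libraries and fell by 1.01 on the log2 scale (edgeR, adjusted p = 0.0207). Tcrg-C4 fell by 0.85 (edgeR, adjusted p = 0.0290). Leaving out 1 library at a time kept the call of Tcrg-C1 in 3 and of Tcrg-C4 in 2 of 7 fits. Tcrg-C2 had a log2 fold change of -0.99 (edgeR, adjusted p = 0.0502). Of the 8 genes listed for gamma-delta T cells, 2 were called lower, against 6.94% of all genes tested, and 2 higher, against 9.8%. Those higher were Cd163l1 (1.31) and 5830411N06Rik (1.59), scavenger receptors carried by a subset of these cells (log2 fold change, edgeR). Their calls were kept in 5 and in 7 of the 7 fits that leave out 1 library. Sox13, a transcription factor on the same list, had 1.49 to 2.54 CPM in aged and 1.04 to 1.32 CPM in young libraries, higher in every aged library, and was not called (log2 fold change 0.76, adjusted p = 0.0932, edgeR). The summed level of the list was 118 to 167 CPM in aged and 149 to 188 CPM in young libraries. Most of it was Blk, a kinase that B cells also express, with 67.4 to 127 CPM in aged and 95.6 to 139.8 CPM in young libraries, which was not called.

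**Figure D5:**
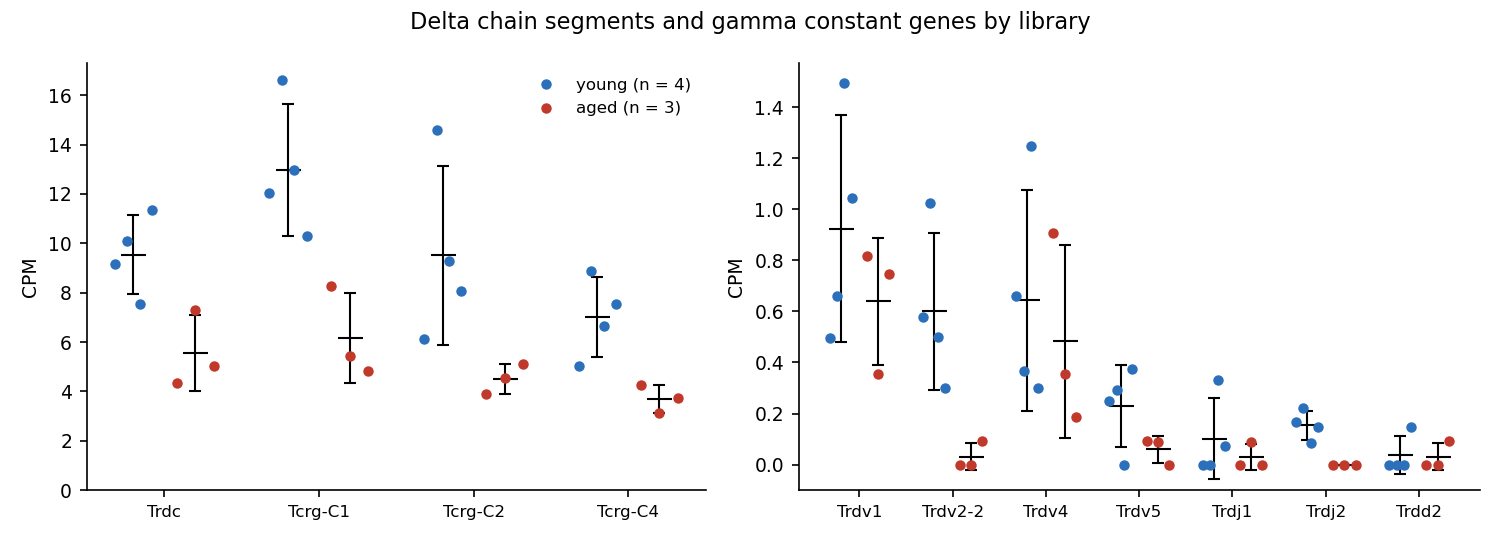
CPM of Trdc and the gamma constant genes (left) and of the Trdv, Trdj and Trdd segments (right) in each library, with young in blue (n = 4) and aged in red (n = 3), the long tick at the mean and bars giving the SD. Trdc and all 3 gamma genes lie lower in every aged library, and Trdv2-2 has 0 counts in 2 aged libraries.

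Genes that assemble, rearrange or signal from the receptor were listed beside the members. Of 17, 16 were tested and edgeR called 1 higher and 2 lower in aged Tregs, against 9.8% higher and 6.94% lower of all genes tested. Cd3e, a signalling chain of the receptor complex, rose by a log2 fold change of 0.46 (adjusted p = 0.0301), from 208 to 253 CPM in young to 273 to 317 CPM in aged libraries. Cd3d (0.08), Cd3g (0.29) and Cd247 (0.19), the other chains, and the beta constant genes Trbc1 (0.41) and Trbc2 (0.15) were not called. Rag1, the recombinase that joins the segments, had 0.0908, 6.49 and 0.745 CPM in aged and 21.4, 16.1, 81.0 and 32.1 CPM in young libraries and was lower in every aged library (-3.78, adjusted p = 0.0376, edgeR). With 1 library left out its log2 fold change ranged from -6.45, without aged replicate 2, to -3.10, without young replicate 3. Its partner Rag2 had 0, 0.534 and 0 CPM in aged and 0.990 to 4.24 CPM in young libraries (adjusted p = 0.0739, edgeR). Dntt, which adds bases at the joints, had 1.69 to 2.63 CPM in aged and 4.55 to 9.60 CPM in young libraries (-1.52, adjusted p = 0.0163). Leaving out 1 library at a time kept the call of Cd3e in 2, of Rag1 in 2 and of Dntt in 6 of 7 fits. Ptcra, the partner of the beta chain in the thymus, had at most 1 count in a library. Rag1 and Dntt are also used by developing B cells, and the B cell markers given above were present; their part in these values was not tested.

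Trat1, Cd4, Lat, Zap70, Lck, Cd8a and Cd8b1 were not called. Cd4, a marker named in the labels, had 383 to 464 CPM in aged and 511 to 662 CPM in young libraries, without overlap (-0.30, adjusted p = 0.117, edgeR). Il2ra, which encodes CD25, had 294 to 499 CPM in aged and 490 to 715 CPM in young libraries. These levels overlapped, and Il2ra was not called (-0.61, adjusted p = 0.0588, edgeR). Among the 6 neighbours of the locus, 5 were tested and none was called. Dad1, the gene next to Trac, had a log2 fold change of 0.21 (adjusted p = 0.317, edgeR). None of these 5 had an unadjusted p under 0.05 with edgeR, and DESeq2 called none of them.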

How the data were processed

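RNA-sequencing libraries of splenic CD4+CD25+ cells from 3 aged and 4 young mice were analysed. The series text gives magnetic bead isolation, the paper's methods a Treg isolation kit, and the labels Trizol and the SMART-Seq v4 kit. The young mice are labelled 8-week old, while the paper's methods give another age. The authors deposited raw read counts per Ensembl gene for each library, in the layout of HTSeq-count (union mode, no strand). Reads assigned to no gene or to more than 1 gene (13.1% to 20.9% of reads) were not used. The authors also deposited a series table, whose signal values are these counts divided by 1 size factor per library. That table gave gene names and types only. Its columns of the authors' log2 fold change and p-values were not used. The submitters' processing notes name mm10; the aligner and annotation are not given in the sources used here. Coordinates and sequences are from GENCODE M21 (GRCm38), matched by Ensembl identifier for all 161 members. RefSeq promoter sequences matched 0 members.

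CPM are counts per 1000000 gene counts. The quasi-likelihood test of edgeR (4.0.16, under R 4.3.3) was fitted to the counts of the whole table, with TMM factors, filterByExpr by age and no covariate (13904 genes), with Benjamini-Hochberg adjustment over all of them. The paper's methods name limma, which was run as an alternative (3.58.1, voom), as was DESeq2 1.42.0. For shares, the library size of the V or J segments was replaced by the total of their class. The SE was obtained by dividing the log2 fold change by the square root of F. The fits were also run on simulated counts, for which no outcome is given here. The labels name biological replicates but no animals or pools, so p-values measure the spread between these libraries. Other alternatives were other size factors, library size only, other filters, heavy genes left out, a replicate block and leaving out each library. Named segments were the constant and delta segments, the invariant receptor segments, the 5 V and 5 J segments of largest mean share, the 5 largest rises and falls in share among those with a mean of 10 counts or more, and every called member. Members and lists were chosen with earlier results of these data known. Intervals cover counting error only, as the cDNA carries no molecular identifiers.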

Additional observations from a re-analysis of the deposited data

Results flagged for a closer look

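In 2 of 41 sets of 4 young libraries that were checked, 1 library lay far from the other 3 by Dixon's test, and chance gives about 1 such set in 20. The share of Trav7-1 among Trav counts was 1.68% in young replicate 3, against 1.12% to 1.18% in the other young libraries. The share of Traj33 among Traj counts was 3.24% in young replicate 1, against 0.439% to 0.881% in the other young libraries. The latter rests on 9 counts against 1 to 2 counts.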

How the results depend on the processing

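The number of members called higher in aged Tregs was 1. It was 2 with DESeq2 and with immunoglobulin, haemoglobin and mitochondrial genes left out. With 1 library left out it was 0 to 2. It was 0 with at least 10 counts in every library, a filter that removed Traj1 itself from the test. The number called lower was 0. It was 2 with DESeq2, 1 without a filter on low counts and 0 to 1 with 1 library left out. Of the named segments and receptor or neighbouring genes 4 were called, 11 with DESeq2, 2 with at least 10 counts in every library and 0 to 6 with 1 library left out. Over all genes 2327 were called, 3804 with DESeq2 and 1237 to 3058 with 1 library left out. Cd3e lost its call without aged replicates 2 or 3 or young replicates 1, 3 or 4, Rag1 without aged replicates 1 or 3 or young replicates 1, 3 or 4, Dntt without aged replicate 3, Tcrg-C1 without aged replicates 2 or 3 or young replicates 1 or 3, Tcrg-C4 without aged replicates 2 or 3 or young replicates 2, 3 or 4, Cd163l1 without aged replicate 2 or young replicate 4, Il18r1 without young replicate 3, Klrb1c without aged replicate 3 or young replicates 3 or 4, S100a8 without aged replicates 1 or 2 or young replicates 1, 2 or 4 and S100a9 without aged replicate 1 or young replicates 1 or 4. The causes were not tested. Calls by share stayed at 0 for V and J segments under all settings run. Differences in class totals, position along the locus and effective numbers moved by less than 1 SD, pooled within the ages, but with 1 library left out several moved by over 1.5 times. The difference in the Traj total ranged from 4.38 (without aged replicate 1) to 15.8 CPM, around 10.9, and that in the share of the downstream Traj segments from -12.6 (without aged replicate 3) to -2.72 percentage points (without aged replicate 2), around -7.80. That in the Trav total ranged from -33.2 (without aged replicate 1) to -7.55 CPM (without young replicate 2), around -19.5, and that in the effective number of Traj segments from 1.04 (without aged replicate 2) to 5.21 (without aged replicate 3), around 2.59. The difference in the share of the upstream Traj segments ranged from -0.32 to 3.97 percentage points, around 2.01, and that in the effective number of Trav segments from -0.84 to 0.58, around -0.25. Low counts limit most J and delta segments.

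The replicate numbers did not pair the libraries: deviations of same-numbered libraries correlated at -0.0915, -0.292 and -0.138. With the replicate number as a block, 0 members were called higher and 0 of the named segments and genes were called, and Tcrg-C1, Tcrg-C4, Cd163l1, 5830411N06Rik, Il18r1, Tbx21, Klrb1c, S100a8 and S100a9 were not called either (edgeR, adjusted p = 0.0512 to 0.260), while Csf1r was (adjusted p = 0.0430, edgeR). Traj1 then had a log2 fold change of 1.57 (edgeR, adjusted p = 0.0823), and 292 genes of the table were called.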
